A study of Mus musculus with 32 samples.

Results

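The chemokines described here are 10 genes of the mouse, Ccl2, Ccl6, Ccl7, Ccl8, Ccl9, Ccl11, Cxcl1, Cxcl12, Cxcl13 and Cxcl14, taken by name from a table of read counts for 47643 Ensembl genes. Chemokines are small secreted proteins that bind proteoglycans of the extracellular matrix and form gradients. White blood cells read these gradients through receptors coupled to G proteins and move toward the source. In epididymal fat (eWAT) and in liver, stromal cells, endothelial cells and resident macrophages are known sources of chemokines. Glucocorticoids such as corticosterone (cort) are known for restraining the transcription of many inflammatory genes in cultured cells.

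The study asked how a diet high in protein alters the response of mice to cort (strain C57BL/6 in the labels, C57BL/6J in the study's methods). Male mice received cort in their drinking water, or the ethanol vehicle (Veh), for 7 days, and treatment began at 10 weeks of age. Each treatment was given together with a normal-protein diet (NPD), with 20% of kcal from protein, or a high-protein diet (HPD), with 60% of kcal from whey protein and fewer carbohydrates. Each of the 8 groups of tissue, treatment and diet had 4 libraries, and the groups are written here as Veh + NPD, Cort + NPD, Veh + HPD and Cort + HPD. The controls of every cort comparison drank ethanol too, and all mice were wild-type. Protein and carbohydrate changed together between the diets and cannot be told apart. Because whole tissue was sequenced, fewer cells of a type and less RNA per cell cannot be told apart either.

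Libraries held 8933307 to 18057936 counts, with medians of 14486945 in eWAT and 13304979 in liver. The fat marker genes, among them Adipoq and Plin1, summed to between 26984 and 35154 CPM (counts scaled to library size, here after TMM scaling) in the 16 eWAT libraries, and the hepatocyte markers, among them Alb, to between 88613 and 275674 CPM in 15 liver libraries. The liver library labelled Veh + HPD replicate 4 stood apart, with a hepatocyte sum of 40752 CPM, a macrophage sum of 629.7 CPM against 295 to 339 in the other 3 of its group, and a Kupffer cell sum of 324 CPM against 165 to 174. It was left out of the liver results, which are given with it as well where they changed. The eWAT library Cort + HPD replicate 4 held epididymis and testis transcripts summing to 9234 CPM, against 0 to 10.8 CPM in the other 15, of which Cort + HPD replicates 3 (10.8 CPM) and 2 (6.32 CPM) were the highest. Among the 5 glucocorticoid receptor target genes examined as a check of the labels, Fkbp5 rose with cort in both tissues of NPD mice. None rose in HPD mice, where Zbtb16 fell in eWAT and Klf9, Per1 and Zbtb16 fell in liver.

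Of the 10 genes, 6 lie close together on chromosome 11. Ccl2, Ccl7, Ccl11 and Ccl8 follow each other on the plus strand within 81.2 kb (GRCm38 chr11:82035571-82116799), and Ccl9 and Ccl6 lie on the minus strand within 20.2 kb (chr11:83572919-83593087). Cxcl1 (chr5:90891241-90893115) and Cxcl13 (chr5:95956951-95961068) share chromosome 5, while Cxcl12 is at chr6:117168535-117181367 and Cxcl14 at chr13:56288643-56296551. All 10 are annotated as protein-coding. The 250 bases upstream of the start site, where the basal transcription machinery assembles, were found in the RefSeq table of GRCm38.p6 for 7 of the 10, and 4 are shown because their genes carry the differences described below: Ccl8 (chr11:82114935-82115184, plus strand), Ccl9 (chr11:83578637-83578886, minus strand), Cxcl12 (chr6:117168285-117168534, plus strand) and Cxcl13 (chr5:95956689-95956938, plus strand).
Ccl8: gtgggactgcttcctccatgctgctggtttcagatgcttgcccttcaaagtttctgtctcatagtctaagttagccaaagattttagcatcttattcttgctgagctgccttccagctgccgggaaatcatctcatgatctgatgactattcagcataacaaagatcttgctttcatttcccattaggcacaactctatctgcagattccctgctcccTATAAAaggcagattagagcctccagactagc
Ccl9: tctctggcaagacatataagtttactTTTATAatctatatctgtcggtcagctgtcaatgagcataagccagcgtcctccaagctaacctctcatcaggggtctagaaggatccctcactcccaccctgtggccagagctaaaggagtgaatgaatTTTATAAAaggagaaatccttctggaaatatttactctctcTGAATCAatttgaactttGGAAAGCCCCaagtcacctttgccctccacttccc
Cxcl12: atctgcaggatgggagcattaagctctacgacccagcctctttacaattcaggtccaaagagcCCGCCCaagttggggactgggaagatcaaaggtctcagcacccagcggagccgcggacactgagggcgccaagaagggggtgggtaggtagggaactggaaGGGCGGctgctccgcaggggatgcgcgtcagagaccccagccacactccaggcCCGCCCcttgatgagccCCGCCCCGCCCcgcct
Cxcl13: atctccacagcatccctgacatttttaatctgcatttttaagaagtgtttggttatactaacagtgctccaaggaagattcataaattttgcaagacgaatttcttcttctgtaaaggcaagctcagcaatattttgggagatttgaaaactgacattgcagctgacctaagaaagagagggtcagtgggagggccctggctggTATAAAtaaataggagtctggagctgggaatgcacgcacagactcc
Capitals mark every match, on either strand, to the TATA box in its form TATAAA, to the GC box with the core letters GGGCGG, to the hexamer bound by the glucocorticoid receptor, which reads AGAACA, the full glucocorticoid response element, of which that hexamer is a part, the AP-1 site, the core of the interferon-stimulated response element and the NF-kB consensus. The letters TATAAA stood 32 to 27 bases upstream of the Ccl8 start, 46 to 41 bases upstream of the Cxcl13 start and, among other places, 92 to 87 bases upstream of the Ccl9 start, and 12.4% of the 32851 promoters searched held them. For Cxcl13 the start is that of RefSeq, whose window ended at base 95956938, before the annotated gene start at 95956951. The bases that follow this window were found in no annotated transcript of Cxcl13, so its distances are less certain. Cxcl12 had no such match but 5 GC boxes and a GC content of 64.4%, against 42.0% to 44.8% in the other 3 shown; 32.7% of all promoters held a GC box. Ccl9 also held an NF-kB match (3.9% of promoters) that overlapped no other motif and an AP-1 match (6.75%). The receptor hexamer (16.1%) was matched among the 7 only upstream of Cxcl14, which is not printed, together with an interferon element core (2.98%), the other NF-kB matches were upstream of Cxcl1, and the full response element (0.00913%) was matched in none.

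In fat of Veh + NPD mice the 10 transcripts together made up 771 ± 123 CPM (SD, n = 4), and in liver 214 ± 13.1 CPM (n = 4). Counts from a 3′ end library do not scale with transcript length, so that levels of different genes could be set side by side. Ccl6, a ligand of the receptor Ccr1, was the most abundant in eWAT with 508 ± 87.6 CPM and accounted for 65.8% of the total. Ccl9, another Ccr1 ligand, followed with 120 ± 24.6 CPM. Next were Cxcl12, the stromal ligand of Cxcr4, with 61.5 ± 15.2 CPM and the eotaxin Ccl11, which attracts eosinophils through Ccr3, with 43.2 ± 27.4 CPM, and the libraries of these neighbours overlapped. Ccl8 stood at 15.8 ± 3.98 CPM, below every Ccl11 library, and its lowest library overlapped those of Ccl2, Ccl7 and Cxcl13. The monocyte attractants Ccl2 (6.34 ± 3.37 CPM) and Ccl7 (6.07 ± 4.02 CPM), the B cell attractant Cxcl13 (4.71 ± 6.00 CPM) and Cxcl14 (4.01 ± 2.27 CPM) did not differ from one another beyond their spread. The neutrophil attractant Cxcl1 was lowest, at 1.24 ± 0.783 CPM.

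**Figure D1:**
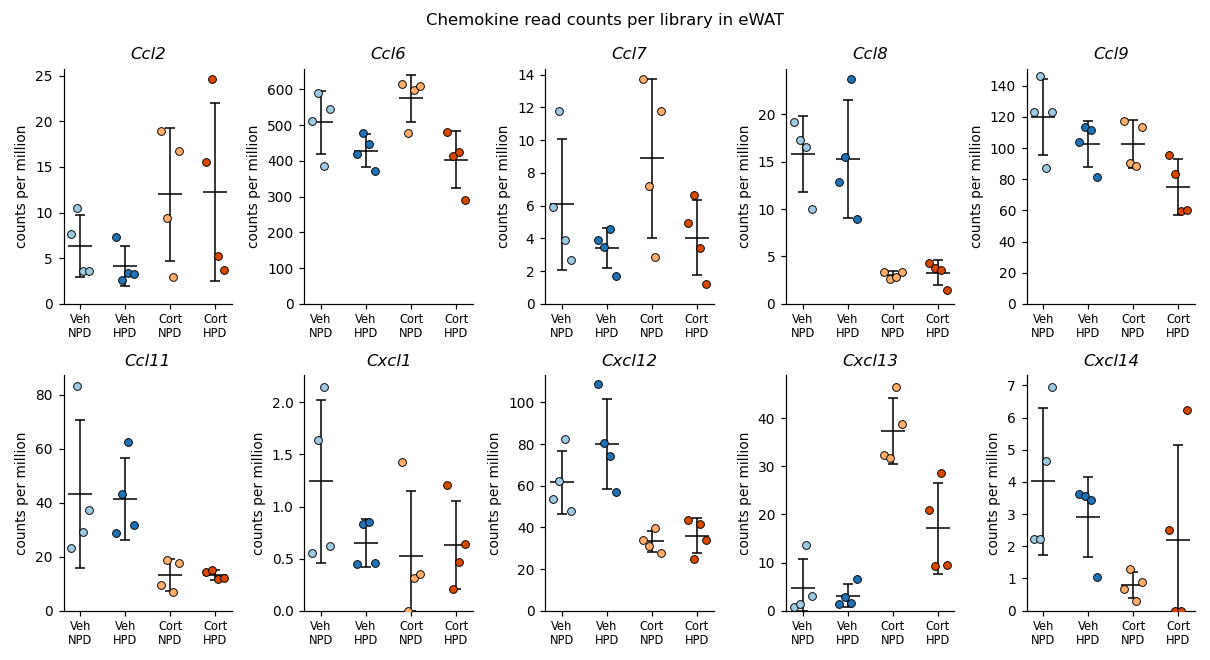
Level in CPM of each of the 10 chemokine genes in the 16 eWAT libraries, 1 panel per gene, with linear vertical axes from 0; points are libraries and bars are the mean ± SD of the 4 libraries of a group. Ccl8, Ccl11 and Cxcl12 lie lower in both Cort groups than in the Veh group of the same diet, Cxcl13 lies higher, and the Ccl6 libraries of the 4 groups lie between 291.7 and 615 CPM.

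In liver the order was another one. Cxcl12 led with 136 ± 11.7 CPM and 63.8% of the total, followed without overlap by Ccl9 (40.4 ± 4.35 CPM), Ccl6 (22.9 ± 7.08 CPM) and Cxcl1 (6.70 ± 3.36 CPM). Cxcl13 (3.97 ± 1.76 CPM) overlapped Cxcl1, and Ccl2 (1.57 ± 0.315 CPM), Cxcl14 (1.15 ± 0.277 CPM) and Ccl7 (0.481 ± 0.448 CPM) each overlapped their neighbour. Ccl8 and Ccl11 were close to absent, with 0 to 9 and 0 to 2 counts per library in Veh + NPD liver, and neither passed the filter on low counts in this tissue. Their values in the other liver groups were 0 to 12 counts for Ccl8 and 0 to 6 for Ccl11, including the library left out.

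Scaled together, eWAT and liver of Veh + NPD mice differed in 7 of the 10 chemokines at an adjusted p under 0.05, where 62.7% of all 16482 genes tested did. Ccl6 was higher in eWAT by a log2 difference of 3.44 (SE 0.26, adjusted p = 3.9e-13), Ccl7 by 2.60 (SE 0.81, adjusted p = 0.00649) and Ccl9 by 0.53 (SE 0.16, adjusted p = 0.00495). Cxcl12 was lower in eWAT, with a log2 difference of -2.18 (SE 0.18, adjusted p = 1.52e-12), as was Cxcl1 with -3.46 (SE 0.62, adjusted p = 2.04e-05). Summed over 4 libraries, Ccl11 had 2469 counts in eWAT and 4 in liver, a ratio of 231 after scaling (95% exact interval 90.2 to 849, for counting error only), and Ccl8 had 937 and 16 (ratio 21.9, interval 13.4 to 38.5). Ccl2, Cxcl13 and Cxcl14 did not pass the test. With the replicate number as a block, set separately within each tissue, the Ccl7 difference was 2.16 and the call was lost (adjusted p = 0.0683). Such a block does not join an eWAT library to the liver library of the same number. The labels do not say whether libraries of the same number came from 1 mouse, and a pairing of the tissues was not fitted. Scaling to library totals moved the median of all genes from 0.26 to 1.28 and Ccl9 to 1.56, with no change of direction among the 7 genes, so the sizes depend on the scaling while the directions did not. Ccl9 was above the median of all genes under both scalings.

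Cort lowered 3 of these chemokines in eWAT on both diets. On the NPD 4 of 10 passed the test, against 7.98% of all 15187 genes tested, with Ccl8, Ccl11 and Cxcl12 lower and Cxcl13 higher. On the HPD 3 of 10 passed, against 6.09% of all genes, and these were Ccl8, Ccl11 and Cxcl12, all lower. The median log2 change of the 10 was -0.56 on the NPD and -0.24 on the HPD, beside -0.02 and -0.00 over all genes.

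Ccl8, which attracts T cells and other leukocytes and is made by macrophages and fibroblasts, fell several-fold on both diets. On the NPD its 4 Veh libraries held 19.2, 17.3, 16.6 and 10.1 CPM and its 4 Cort libraries 3.33, 2.62, 2.84 and 3.38 CPM. On the HPD the Veh libraries held 12.9, 15.5, 23.7 and 8.95 CPM and the Cort libraries 4.36, 3.79, 3.59 and 1.42 CPM. Every Cort library was below every Veh library. Ccl8 was 5.19-fold lower with cort on the NPD (log2 change -2.38, SE 0.33, adjusted p = 2.31e-05) and 4.67-fold lower on the HPD (log2 change -2.22, SE 0.33, adjusted p = 8.25e-05). Both calls were kept under each of 24 alternative settings.

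Ccl11 had 23.1, 83.4, 29.1 and 37.3 CPM in the Veh + NPD libraries and 9.51, 18.9, 6.94 and 17.5 CPM in Cort + NPD. In Veh + HPD it had 28.8, 43.1, 62.4 and 31.9 CPM, and in Cort + HPD 14.3, 15.1, 11.6 and 12.0 CPM. The groups did not overlap on either diet, although Veh + NPD replicate 2 was far above the other 3 of its group. Ccl11 was 3.27-fold lower with cort on the NPD (log2 change -1.71, SE 0.42, adjusted p = 0.0227) and 3.15-fold lower on the HPD (log2 change -1.66, SE 0.42, adjusted p = 0.0337). These calls sat near the threshold. On the NPD the call was lost in 3 of 24 alternatives, which included leaving out Cort + NPD replicate 1 or 3, and on the HPD in 7, which were no filter and leaving out Veh + HPD replicate 2 or 3 or any 1 of the 4 Cort + HPD libraries (adjusted p up to 0.0942 and 0.0963).

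Cxcl12, which holds Cxcr4-bearing cells in their niches, fell less in size but with little spread. It had 53.4, 62.2, 82.5 and 47.9 CPM in Veh + NPD and 34.1, 31.3, 39.8 and 27.8 CPM in Cort + NPD. On the HPD it had 109, 80.5, 74.2 and 56.8 CPM in Veh and 43.3, 25.0, 41.8 and 34.0 CPM in Cort. Again no Cort library reached a Veh library. It was 1.85-fold lower with cort on the NPD (log2 change -0.89, SE 0.20, adjusted p = 0.00602) and 2.22-fold lower on the HPD (log2 change -1.15, SE 0.20, adjusted p = 0.000764), and both calls were kept under each of 24 alternatives.

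Markers of other cells moved beside these 3 genes. The summed level of 9 stromal progenitor markers, among them Pdgfra, Pi16, Dcn and Col3a1, was 4331 to 5445 CPM in the 8 Veh libraries of eWAT and 2602 to 3211 CPM in the 8 Cort libraries, with 8 of 9 lower by the test on the NPD and 6 of 9 on the HPD. Over all genes, 7.98% passed in either direction on the NPD and 6.09% on the HPD. The dendritic cell marker sum was 19.1 to 40.7 CPM with Veh and 11.1 to 17.8 CPM with cort. The sum of 12 macrophage markers, in contrast, was 1381 to 1672 CPM with Veh and 1256 to 1808 CPM with cort, with 2 of 12 lower by the test on the NPD, and 2 lower (Adgre1 and Mrc1) and 1 higher (Cd68) on the HPD, and the fat marker sum also overlapped between treatments. Eosinophil markers summed to at most 1.79 CPM in any eWAT library, and red blood cell markers to 3619 to 9273 CPM in 3 of the eWAT groups and 12684 to 25856 CPM in Cort + HPD. The part of stromal or dendritic cells in the fall of Ccl8, Ccl11 and Cxcl12 was not tested. Without the eWAT library that held epididymis transcripts, Ccl8 and Cxcl12 still fell on the HPD and Ccl11 did not pass, leaving 2 of 10.

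Cxcl13, which guides B cells to follicles through Cxcr5 and is also made by peritoneal mesothelium and macrophages, moved the other way in fat. Its Veh + NPD libraries held 0.679, 1.49, 13.6 and 3.10 CPM and its Cort + NPD libraries 32.3, 31.6, 46.5 and 38.8 CPM. On the HPD the Veh libraries held 1.33, 2.82, 1.59 and 6.55 CPM and the Cort libraries 20.9, 9.37, 28.7 and 9.40 CPM. The groups did not overlap on either diet. The 4 Cort + NPD libraries were also above all 4 Cort + HPD libraries, but this diet difference did not pass by edgeR (log2 difference -1.12, SE 0.73, adjusted p = 0.671). With cort Cxcl13 was 7.90-fold higher on the NPD (log2 change 2.98, SE 0.79, adjusted p = 0.036), and on the HPD the log2 difference of 2.48 (SE 0.79, adjusted p = 0.0959) did not pass. The HPD difference did pass by DESeq2 (adjusted p = 0.0206), by limma voom without and with quality weights (0.0104 and 0.00649) and when only the groups compared were fitted (0.0362). The spread among Veh libraries was wide, and the NPD call was lost in 11 of 24 alternatives (adjusted p from 7.47e-05 to 0.101). These were no filter, only the groups compared, and leaving out any 1 Cort + NPD library, Veh + NPD replicate 1, 2 or 4, Veh + HPD replicate 2 or Cort + HPD replicate 1. Without Veh + NPD replicate 3, the highest Veh library, the NPD change was 4.41 and passed, and the HPD change, of 2.48, passed as well (adjusted p = 0.0202). The mesothelial marker sum was 162 to 319 CPM in Veh + NPD and 134 to 209 CPM in Cort + NPD, and the B cell marker sum 0.447 to 21.2 and 0 to 3.03 CPM. Kupffer cell markers, which some macrophages of fat also express, summed to 6.61 to 13.0 CPM with Veh and 10.2 to 32.8 CPM with cort in eWAT. Their part in the rise of Cxcl13 was not tested.

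**Figure D2:**
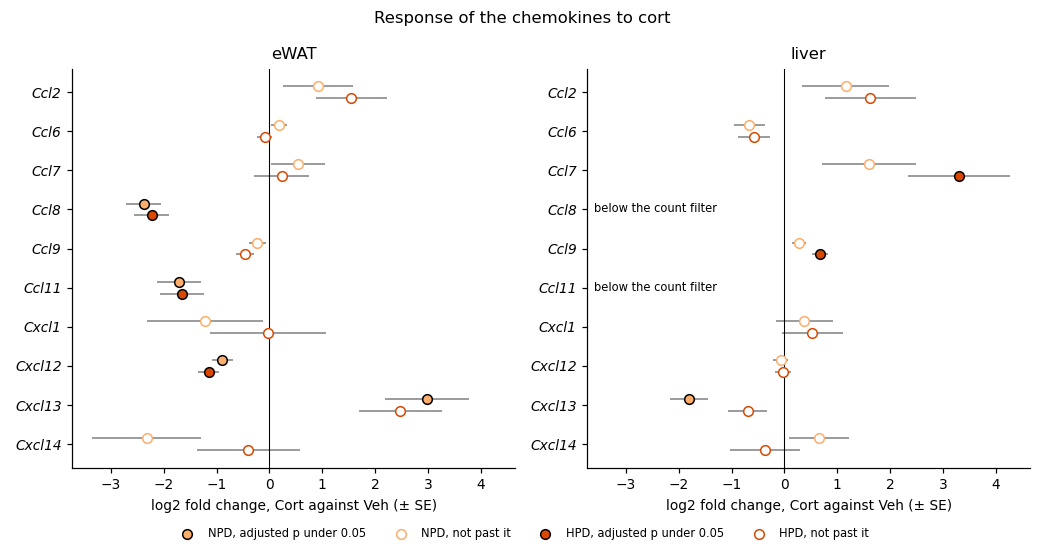
Log2 fold change of each chemokine with cort against vehicle, from edgeR, in eWAT (left) and liver (right), with bars of 1 SE; filled points passed an adjusted p of 0.05 and open points did not. In eWAT Ccl8 (-2.38 and -2.22), Ccl11 and Cxcl12 are filled on both diets and Cxcl13 (2.98) on the NPD, and in liver Cxcl13 (-1.81) is filled on the NPD and Ccl7 and Ccl9 on the HPD.

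The remaining 6 chemokines of eWAT did not pass the test for cort. Ccl2 had 7.66, 10.5, 3.63 and 3.58 CPM in Veh + NPD and 18.9, 9.38, 2.92 and 16.7 CPM in Cort + NPD, a log2 difference of 0.92 (SE 0.66, adjusted p = 0.496). Its Veh + HPD libraries held 7.36, 2.56, 3.42 and 3.31 CPM and its Cort + HPD libraries 15.5, 24.6, 5.25 and 3.73 CPM, a log2 difference of 1.55 (SE 0.67, adjusted p = 0.224). The Cort libraries of Ccl2 were scattered, some several times above the Veh libraries and others among them. Ccl7 differed by 0.55 and 0.23 and Ccl6 by 0.18 and -0.09 (NPD, then HPD), all on the log2 scale, and the Ccl7 difference on the HPD changed sign without Cort + HPD replicate 2. Ccl9 differed by -0.23 in NPD mice and by -0.46 in HPD mice (SE 0.17, adjusted p = 0.113), a difference that passed without Veh + HPD replicate 4 (adjusted p = 0.0444) or Cort + HPD replicate 1 (0.0418). In HPD mice its Veh libraries held 104, 114, 111 and 81.5 CPM and its Cort libraries 95.8, 83.6, 59.9 and 60.2 CPM. Cxcl1 was sparse, with 0 to 32 counts per library. Cxcl14, which is made by epithelial and stromal cells and has no settled receptor, had 2.22, 2.23, 4.64 and 6.96 CPM in Veh + NPD and 0.679, 1.31, 0.315 and 0.890 CPM in Cort + NPD. These groups did not overlap, yet the log2 difference of -2.32 (SE 1.03, adjusted p = 0.209) passed only when the groups compared were fitted alone (adjusted p = 0.0161). In Cort + HPD it had 2.50, 0, 0 and 6.24 CPM, the last in the library that held epididymis transcripts.

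In liver cort lowered Cxcl13 on the NPD and raised Ccl7 and Ccl9 on the HPD. On the NPD 1 of the 8 chemokines tested passed, a share close to the 12.6% of all 12391 genes that did. On the HPD 2 of 8 passed, against 9.89% of all genes. The median log2 change of the 8 was 0.33 on the NPD and 0.25 on the HPD, beside -0.01 and -0.00 over all genes.

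Cxcl13 in liver had 3.79, 6.16, 4.07 and 1.86 CPM in Veh + NPD and 0.770, 1.04, 1.51 and 1.15 CPM in Cort + NPD. In Veh + HPD it had 1.95, 2.59 and 3.04 CPM and in Cort + HPD 1.95, 1.69, 1.61 and 0.965 CPM. The groups separated on the NPD, while on the HPD the highest Cort library all but touched the lowest Veh library. It was 3.50-fold lower with cort on the NPD (log2 change -1.81, SE 0.36, adjusted p = 0.00155), a call kept under all 24 alternatives, and the HPD difference of -0.70 (SE 0.37, adjusted p = 0.254) did not pass. Counts were low, 22 to 58 per library in Veh + NPD and 10 to 20 in Cort + NPD. The Kupffer cell marker sum, over Clec4f, Vsig4, Timd4, Marco and Cd5l, was 149.9 to 221 CPM in Veh + NPD and 59.4 to 78.5 CPM in Cort + NPD, with 4 of 5 lower by the test. The sum of 12 macrophage markers was 315 to 429 CPM in Veh + NPD and 157 to 272 CPM in Cort + NPD, with 5 of 12 lower. Over all genes, 12.6% passed in either direction in this comparison. B cell markers in liver summed to at most 1.64 CPM in these groups. Their part in the fall of Cxcl13 was not tested.

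**Figure D3:**
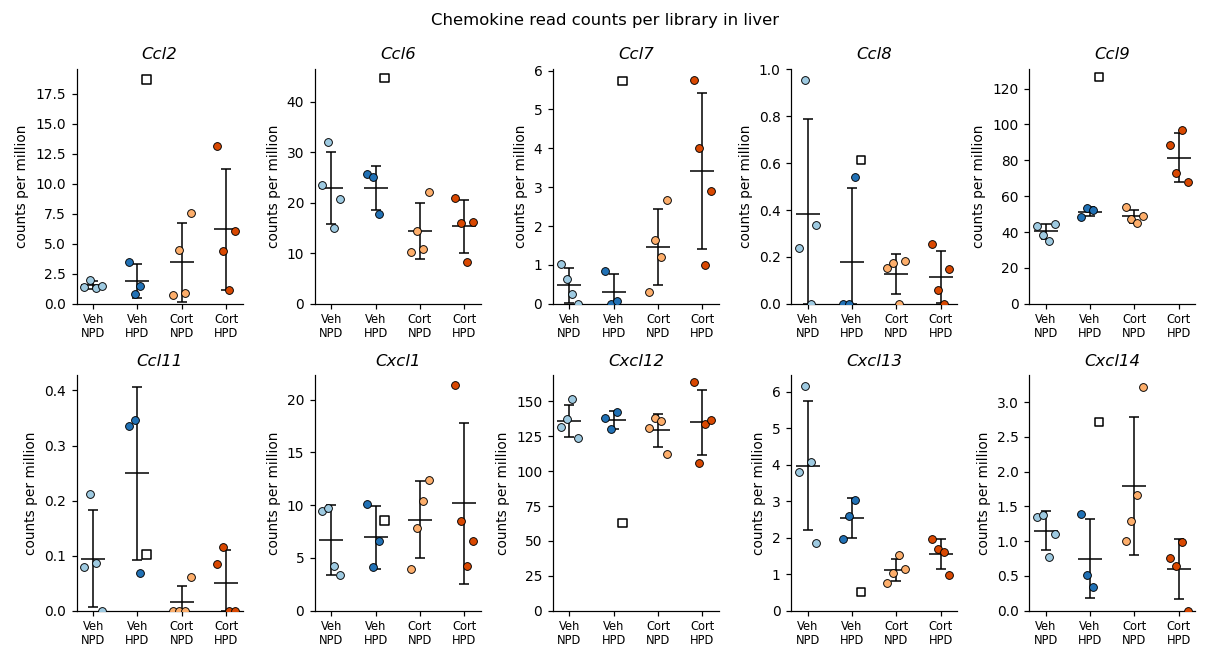
Level in CPM of each of the 10 chemokine genes in the 16 liver libraries, drawn as for eWAT with axes from 0; the open square is the Veh + HPD library left out of the means and SDs. Cxcl13 is lower in Cort + NPD than in Veh + NPD, Ccl9 is highest in the 4 Cort + HPD libraries (67.6 to 96.7 CPM) among those used, and the open square lies far above its group for Ccl2, Ccl7 and Ccl9.

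Ccl9 in liver had 48.4, 53.5 and 52.2 CPM in the Veh + HPD libraries used and 88.7, 72.9, 96.7 and 67.6 CPM in Cort + HPD, where all 4 were above all 3. It was 1.59-fold higher with cort on the HPD (log2 change 0.67, SE 0.15, adjusted p = 0.00695). On the NPD its Veh libraries held 43.5, 38.4, 35.1 and 44.4 CPM and its Cort libraries 53.8, 47.5, 45.2 and 49.0 CPM, which did not overlap, but the log2 difference of 0.28 (adjusted p = 0.215) did not pass. The library left out held 127 CPM, above every other liver library, and with it the HPD difference was 0.24 (adjusted p = 0.554). Scaling to library totals gave 0.42 (adjusted p = 0.0689) in a comparison where that scaling also moved the median of all genes from -0.00 to -0.24 and the share of higher genes among those called from 48.0% to 17.8%. Hepatocyte markers summed to 88613 to 132332 CPM with Veh and 141025 to 275674 CPM with cort in liver. By the test, 3 of 7 hepatocyte markers were higher and 1 lower with cort on the HPD, against 9.89% of all genes. On the NPD 1 was higher and 3 lower, against 12.6%. Kupffer cell markers summed to 165 to 174 CPM in Veh + HPD and 89.3 to 158 CPM in Cort + HPD. Their part in the rise of Ccl9 was not tested.

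Ccl7 in liver had 0.837, 0 and 0.0676 CPM in Veh + HPD, from 15, 0 and 1 counts, and 5.76, 4.01, 0.995 and 2.90 CPM in Cort + HPD, from 68, 69, 13 and 39 counts. No Cort library was below a Veh library, although the lowest Cort value was close to the highest Veh value. The log2 change in HPD mice was 3.30 (SE 0.97, adjusted p = 0.0432), and the difference in NPD mice was 1.60 (SE 0.89, adjusted p = 0.278). The HPD call was lost in 13 of 24 alternatives, which included library totals (3.01, adjusted p = 0.0515) and leaving out any 1 of 9 libraries: replicate 2 or 3 of Veh + NPD, Veh + HPD or Cort + NPD, or replicate 1, 2 or 4 of Cort + HPD. Without Veh + HPD replicate 1, the only Veh + HPD library used with more than 1 count, the change was 6.18, and it was lowest, at 2.85, without Veh + HPD replicate 3. The library left out of all liver fits held 5.73 CPM, so that with it the difference was 1.02 (adjusted p = 0.578). With that library included, none of the 10 chemokines passed for cort on the HPD in liver.

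Ccl2 in liver followed a like pattern without passing, with 3.52, 0.778 and 1.49 CPM in Veh + HPD and 13.1, 4.42, 1.15 and 6.09 CPM in Cort + HPD (log2 difference 1.63, SE 0.86, adjusted p = 0.272). Its Cort libraries spread over more than the range of the Veh libraries. Cxcl12, the most abundant member in liver, had 132, 137, 152 and 124 CPM in Veh + NPD and 131, 138, 136 and 112 CPM in Cort + NPD. The log2 difference in NPD mice was -0.07 (SE 0.14, adjusted p = 0.793), and in HPD mice it was -0.02 (SE 0.15, adjusted p = 0.954), where leaving out a library or adding the left-out one turned its sign. For Ccl6 the NPD difference was -0.66 (SE 0.29, adjusted p = 0.15, or 0.0311 without Cort + NPD replicate 4) and the HPD difference -0.58 (SE 0.31, adjusted p = 0.262). Cxcl1 differed by 0.38 and 0.53, with 3.38 to 21.4 CPM over the 15 libraries used. Cxcl14 differed by 0.66 and -0.37 with at most 53 counts in a library.

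No chemokine passed for diet in Veh mice, and in Cort mice only Ccl9 in liver did. Between HPD and NPD in Veh mice, none of 10 passed in eWAT, where 0.0593% of all genes did, and none of 8 in liver, where 0.169% did. At an unadjusted p under 0.05, by edgeR, 0 of 10 and 1 of 8 were counted, beside 1219 of 15187 and 1165 of 12391 over all genes. The 1 in liver was Ccl9, higher on the HPD by 0.35 on the log2 scale without passing (SE 0.15, adjusted p = 0.464). Its Veh + HPD libraries used all lay above its Veh + NPD libraries. DESeq2 and limma also called no chemokine for diet in Veh mice. In Cort mice none of 10 passed in eWAT, against 0.487% of all genes, while DESeq2 and limma with quality weights called 1 each. By edgeR, 3 of 10 had an unadjusted p under 0.05, beside 1490 of 15187 over all genes. These 3 were Ccl6 (log2 difference -0.51, SE 0.15, adjusted p = 0.141), Ccl7 (-1.15, SE 0.52, adjusted p = 0.463) and Ccl9 (-0.45, SE 0.17, adjusted p = 0.335), all lower on the HPD. Ccl6 had 615, 478, 599 and 610.2 CPM in Cort + NPD and 481, 415, 426 and 291.7 CPM in Cort + HPD, so that 1 library of the first group lay just under the highest of the second.

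In liver of Cort mice 1 of 8 passed for diet, against 5.88% of all genes, and this was Ccl9. It was 1.67-fold higher on the HPD (log2 difference 0.74, SE 0.14, adjusted p = 0.00265), with all 4 Cort + HPD libraries above all 4 Cort + NPD libraries. Fitted with all 16 liver libraries, which changes the shared spread, the adjusted p was 0.0858. Cxcl14 was lower on the HPD by 1.59 on the log2 scale without passing (SE 0.59, adjusted p = 0.115). No chemokine passed for the interaction of diet and cort, which tests whether the cort response differed between diets, in eWAT (0.0132% of all genes passed) or in liver (0.113%). At an unadjusted p under 0.05, by edgeR, there were 0 and 1, beside 784 of 15187 and 1496 of 12391 over all genes. The 1 was Cxcl13 in liver with a difference of 1.11 (SE 0.52, adjusted p = 0.392). A different response of Cxcl13 on the 2 diets was thus not shown in either tissue. For Ccl9 in liver the interaction was 0.39 (SE 0.21, adjusted p = 0.465), so its diet difference was not shown to depend on cort.

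The cort responses of eWAT and liver were compared directly as a difference of log2 changes. On the NPD 2 of 10 chemokines passed, against 3.85% of all genes. Cxcl13 responded by 4.75 more in eWAT than in liver (SE 0.90, adjusted p = 0.00238), a difference called under all 40 alternatives, with its cort libraries above the Veh libraries in fat and below them in liver. The difference for Cxcl12 was -0.85 (SE 0.25, adjusted p = 0.046), but it passed in only 11 of 40 alternatives. On the HPD 2 of 10 passed, against 3.12% of all genes, namely Cxcl12 with -1.09 (SE 0.26, adjusted p = 0.0135), called under all 40 alternatives, and Ccl9 with -1.08 (SE 0.24, adjusted p = 0.00725). With the left-out liver library, the Ccl9 difference was -0.70 (adjusted p = 0.218). Cxcl13 differed by 3.21 on the HPD (SE 0.92, adjusted p = 0.0552), just short of the threshold.

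Ccl2 and Ccl7, neighbours on chromosome 11, varied together from mouse to mouse. After subtracting group means on the log2 scale, Ccl2 and Ccl7 correlated over the 16 eWAT libraries with Pearson's r = 0.87 and Spearman's rho = 0.87 (permutation p = 0.00017 for each, adjusted p = 0.0124 over 73 pairs), and r was 0.82 without the 2 libraries farthest from the median. Over the 15 liver libraries Ccl2 and Ccl7 gave r = 0.84 and rho = 0.82 (permutation p = 0.00127 and 0.00258, adjusted p = 0.0167 and 0.0314), with r = 0.75 without the 2 farthest. Other adjacent pairs of that cluster did not pass in eWAT. Ccl7 and Ccl11 gave r = 0.54 and rho = 0.47 (permutation p = 0.0656 and 0.118, adjusted p = 0.319 and 0.375). Ccl11 and Ccl8 gave r = 0.27 and rho = 0.28 (permutation p = 0.301 and 0.287, adjusted p = 0.68 and 0.578). Ccl7 and Ccl8, in the cluster but not adjacent, did pass in eWAT, with r = 0.69 and rho = 0.70 (permutation p = 0.00137 and 0.00187, adjusted p = 0.0167 and 0.0314). Ccl2 with Ccl8 or with Ccl11 did not. Ccl6 and Ccl9, adjacent on the minus strand, gave r = 0.80 and rho = 0.72 in eWAT (permutation p = 0.00086 and 0.0088, adjusted p = 0.0167 and 0.0803) and r = -0.19 in liver. Genes on different chromosomes could correlate as closely, since Ccl7 and Cxcl1 gave r = 0.90 and rho = 0.86 in liver (permutation p = 0.00042 and 0.00112, adjusted p = 0.0153 and 0.0302). Of the 73 pairs, 3 of 45 in eWAT and 4 of 28 in liver had an adjusted p under 0.05 for r. All points share the libraries and their scaling.

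**Figure D4:**
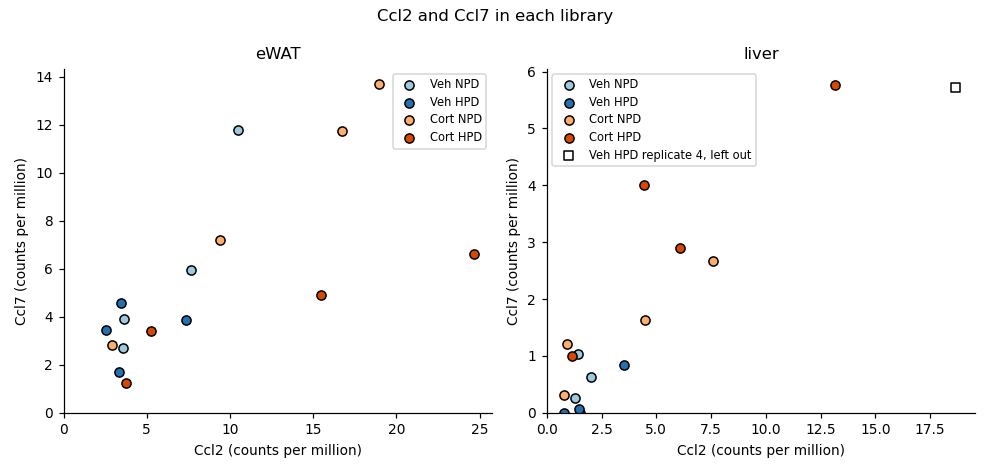
Ccl7 against Ccl2 in CPM, 1 point per library, in 16 eWAT libraries (left) and 16 liver libraries (right), with linear axes from 0; colours are the groups and the open square is the liver library left out. Libraries with more Ccl2 had more Ccl7 in both tissues, r = 0.87 and 0.84 for log2 values after subtracting group means.

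Receptors for these chemokines were measured in the same libraries. Of 18 chemokine receptors, 10 could be tested in eWAT, and cort raised none of them on either diet. Ccr2, the receptor of Ccl2 and Ccl7 on monocytes, had 59.0 ± 15.9 CPM in Veh + NPD and 14.2 ± 3.99 CPM in Cort + NPD (log2 change -2.06, SE 0.29, adjusted p = 0.000201), and 57.0 ± 27.6 and 19.2 ± 2.43 CPM on the HPD (-1.57, SE 0.28, adjusted p = 0.00222). Its ligands Ccl2 and Ccl7 differed by 0.92 and 0.55 on the NPD, as given above, without passing. Ccr3, the receptor of Ccl11, had 1.59 ± 1.22 CPM in Veh + NPD and was at 0 counts in all 4 Cort + NPD libraries, as were Ccr7 (2.03 ± 1.21 CPM with Veh) and Xcr1 (1.60 ± 0.417 CPM with Veh), receptors of dendritic and T cells, and all 3 passed the test on the NPD. On the HPD 1 of 10 receptors, Ccr2, passed, against 6.09% of all genes. There Ccr3 had 1.42 ± 0.939 CPM with Veh and 0.147 ± 0.230 CPM with cort (adjusted p = 0.164), Ccr7 1.19 ± 0.858 and 0.257 ± 0.515 CPM (adjusted p = 0.387) and Xcr1 0.555 ± 0.563 and 0.0161 ± 0.0322 CPM (adjusted p = 0.126), and no receptor passed for the interaction of diet and cort.

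Of the other receptors of the 10 ligands in eWAT, Ackr3 passed on the NPD. Ccr1, which binds Ccl6 and Ccl9, had log2 differences of -1.45 on the NPD (adjusted p = 0.163) and -1.59 on the HPD (adjusted p = 0.134). Cxcr4, the receptor of Cxcl12, had 6.37 ± 2.18 CPM in Veh + NPD and 8.54 ± 2.70 CPM in Cort + NPD (log2 difference 0.42, adjusted p = 0.528). Ackr3, which binds and removes Cxcl12, fell on the NPD from 55.2 ± 6.73 to 35.4 ± 2.89 CPM (log2 change -0.64, SE 0.18, adjusted p = 0.0263) and differed by -0.41 on the HPD (adjusted p = 0.218). Cxcr5 and Cxcr2, the receptors of Cxcl13 and Cxcl1, were below the filter in both tissues, with at most 34 and 19 counts in any library used. The scavenger Ackr1 had a log2 difference of -1.28 on the NPD (adjusted p = 0.104).

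In liver only 5 of 18 receptors could be tested, and none rose with cort. Cxcr6 fell on the NPD, from 1.33 ± 0.912 CPM to at most 2 counts in a library. Ccr2 differed by -1.16 and -1.78 on the log2 scale without passing.

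Among 28 other chemokines, 16 were tested in eWAT, where cort lowered 5 on the NPD, against 7.98% of all genes called, and 2 on the HPD, against 6.09%, and raised none. Ccl5, which T cells make, fell from 13.6 ± 5.83 to 1.33 ± 0.940 CPM on the NPD (log2 change -3.34, SE 0.47, adjusted p = 3.01e-05) and by 2.20 on the log2 scale on the HPD (adjusted p = 0.00271). Cxcl9, induced by interferon gamma, fell from 67.9 ± 25.1 to 11.2 ± 1.53 CPM on the NPD (log2 change -2.60, SE 0.26, adjusted p = 1.87e-06) and by 1.49 on the HPD (adjusted p = 0.000793). Cxcl16, a ligand of Cxcr6, fell by 1.27 on the log2 scale on the NPD, and Ccl17 fell to 0 to 4 counts per library. In liver 14 were tested, of which 3 fell on the NPD, against 12.6% of all genes called, and 1 on the HPD, against 9.89%. Cxcl9 fell by 3.40 (adjusted p = 9.7e-05) and Ccl5 by 2.07 (adjusted p = 0.00695) on the NPD, as did Xcl1 on both diets, to 0 to 2 counts in the Cort libraries. The sum of 8 T and NK cell markers in liver was 2.96 to 5.61 CPM with Veh and 0.640 to 2.62 CPM with cort, with 1 of the 3 tested, Nkg7, lower on the NPD and none on the HPD, and in eWAT it was 1.65 to 13.3 CPM and 0.465 to 4.45 CPM. Their part in the fall of Ccl5 and Xcl1 was not tested. In liver of Cort mice 3 of the 14 passed for diet, against 5.88% of all genes. The HPD had more Ccl5 (log2 difference 2.62, adjusted p = 0.00175), Cxcl9 (2.49, adjusted p = 0.00345) and Cxcl10 (3.04, adjusted p = 0.0174) than the NPD. Ccl9, among the 10, differed in that same comparison in the same direction. None of the 14 passed for the interaction of diet and cort, so these diet differences were not shown to depend on cort.

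**Figure D5:**
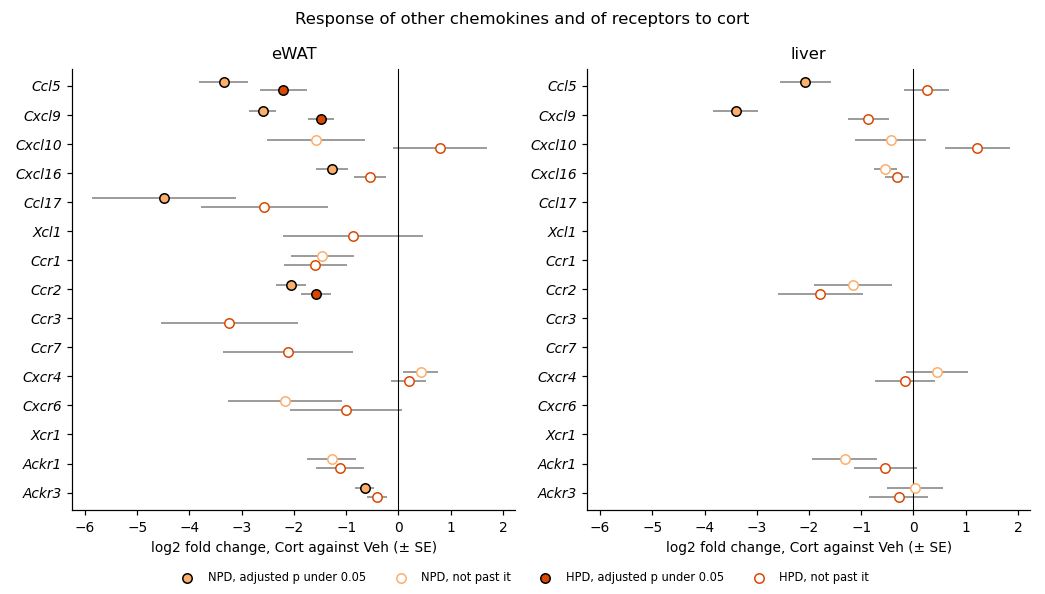
Log2 fold change with cort, ± SE, of other chemokines and of chemokine receptors in eWAT (left) and liver (right), filled where the adjusted p was under 0.05; no point is drawn for a gene below the filter or with at most 3 counts in every library of a group. Ccl5, Cxcl9 and Ccr2 are filled on both diets in eWAT, all lower, and Cxcr4 lies close to 0.

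Proteins that pass on or shape the signal changed in part. Of 15 signalling genes, 4 fell in eWAT on the NPD, against 7.98% of all genes called, and none on the HPD, against 6.09%, and none passed for the interaction. The 4 included Rac2 (log2 change -1.37, adjusted p = 0.000264) and Dock2 (-1.33, adjusted p = 0.00096), which steer the cytoskeleton of migrating leukocytes, and Elmo1 (-1.54, adjusted p = 0.0265). In liver 1 of 12 fell on the NPD (Rac2, -1.72, adjusted p = 0.00308), a share below the 12.6% of all genes, and 5 of 12 on the HPD, against 9.89%, among them Arrb1 (-0.81, adjusted p = 0.0162) and Arrb2 (-0.84, adjusted p = 0.00787), the arrestins that switch receptors off. Between the diets in liver of Cort mice, 1 of 12 was higher on the HPD than on the NPD (Gnai3) and 1 lower (Arrb1), against 5.88% of all genes. Of 8 proteases and proteoglycans, 3 fell and 1 rose with cort in eWAT on the NPD, against 7.98% of all genes called. On the HPD 2 fell, against 6.09%. Mmp2, which cleaves Cxcl12 and Ccl7, fell in eWAT on the NPD from 31.0 ± 6.12 to 7.42 ± 3.26 CPM (log2 change -2.05, SE 0.28, adjusted p = 1.87e-05) and by 1.26 on the HPD (adjusted p = 0.00461). Dpp4, which trims Cxcl12, fell on the HPD by 0.73 (adjusted p = 0.0317). Mmp9 and Bgn fell and Sdc4 rose in eWAT on the NPD, and Mmp9 was higher on the HPD than on the NPD in Cort mice (log2 difference 1.70, adjusted p = 0.0032). In liver Sdc1, a heparan sulfate carrier, rose on both diets (0.96 and 0.92) and Sdc4 fell on both (-0.50 and -0.97). Of 12 inducing cytokines, 4 were tested in eWAT. None passed there for cort by edgeR on either diet (0 also at an unadjusted p under 0.05), against 7.98% and 6.09% of all genes. In liver 3 were tested, and 1, Il1a, fell on the NPD (log2 change -1.27, adjusted p = 0.0285), against 12.6% of all genes. None of the 3 passed on the HPD, against 9.89%. In liver of Cort mice Il1a was higher on the HPD than on the NPD, 1 of 3 against 5.88%, and none passed for the interaction.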

How the data were processed

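RNA from eWAT and liver of 32 mouse tissue samples had been sequenced from the 3′ end of transcripts (QuantSeq), which gives about 1 read per transcript whatever its length. The deposited values are raw counts per Ensembl gene, which the authors made from their reads; their processing notes name GRCm38 (mm10), R 4.0.3 and limma, and the aligner is not given in the sources used here. Symbols were matched for 47224 of 47643 gene IDs. Groups came from the sample labels, which list separate samples; p-values measure the spread between these samples.

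From the counts, edgeR 4.0.16 (R 4.3.3) quasi-likelihood tests were fitted over all genes that passed filterByExpr (minimum count 10, minimum total 15), with TMM scaling, 1 mean per group and Benjamini-Hochberg adjustment, called at an adjusted p of 0.05. Each tissue was fitted alone (15187 genes in 16 eWAT libraries, 12391 in 15 liver libraries), and both together for differences between tissues. The liver library Veh + HPD replicate 4 was left out of these fits. SE is that of the log2 change, and printed CPM are TMM-scaled within a tissue. Tissue ratios of summed counts carry 95% exact intervals. Correlations used log2(CPM + 1) and 1e+05 permutations. Dixon's critical value for 4 libraries was 0.829. On simulated counts from the eWAT libraries, edgeR recovered all 200 changed genes with 5.21% false calls among those made. On the same counts DESeq2 also recovered all 200, with 9.5% false calls, and limma voom, with or without quality weights, with 3.85%. The changed genes were well counted, were changed several-fold and shared 1 fixed spread. The recovery therefore does not speak for chemokines with low counts or a wide spread.

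Alternatives were RLE factors, library totals, DESeq2 1.42.0, limma 3.58.1 (voom, with and without quality weights), no filter, a replicate block, only the groups compared, all 16 liver libraries, and leaving out each library. The 10 genes and the gene lists were chosen with earlier results of these data known. Of the other lists, genes called in any comparison within a tissue were named, at most 6 per list by p, plus the receptors of the 10; marker lists are given as sums and counts. No 2 replicate libraries were identical in any of 48 pairs. An item of the receptor list is not reported here.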

Additional observations from a re-analysis of the deposited data

Results flagged for a closer look

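In 72 groups of 4 libraries, 1 per gene and group, 6 (8.33%) held a library whose gap to its nearest neighbour took up nearly the whole range of the group; chance gives about 5%. Of these, 4 were the liver library Veh + HPD replicate 4, which was left out of the results above. Ccl2 stood at 18.7 CPM there against 0.778 to 3.52 CPM in the other 3 of its group, Ccl7 at 5.73 CPM against 0 to 0.837 CPM, and Ccl9 at 127 CPM against 48.4 to 53.5 CPM. Cxcl12 was the lowest of its group in the same library, with 62.9 CPM against 130.1 to 143 CPM.

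In eWAT, Ccl6 stood at 478 CPM in Cort + NPD replicate 2, below the other 3 at 599 to 615 CPM. Cxcl14 stood at 1.04 CPM in Veh + HPD replicate 4, below the other 3 at 3.42 to 3.62 CPM.

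Of the 10 genes, 3 passed edgeR's test of the difference between the cort responses of eWAT and liver on at least 1 diet. On each diet 2 passed, against 3.85% of all genes on the NPD and 3.12% on the HPD. On the NPD the eWAT response minus the liver response was 4.75 for Cxcl13 and -0.85 for Cxcl12, both on the log2 scale. On the HPD it was -1.08 for Ccl9 and -1.09 for Cxcl12. The Cxcl12 difference on the NPD passed in only 11 of 40 alternatives. With all 16 liver libraries the Ccl9 difference on the HPD did not pass by edgeR (adjusted p = 0.218).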

How the results depend on the processing

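Ccl8 and Cxcl12 in eWAT on both diets, and Cxcl13 in liver on the NPD, were called under all 24 alternatives run for them. The numbers of chemokines called for cort when 1 library was left out ranged from 2 to 4 in eWAT on the NPD (2 without Cort + NPD replicate 1 or 3) and in eWAT of HPD mice from 2 to 4 as well (2 when Veh + HPD replicate 2 or 3, or Cort + HPD replicate 2, 3 or 4, was left out, and 2 with no filter), and from 1 to 2 in liver on either diet. For cort in liver on the HPD, where 2 were called, library totals and all 16 liver libraries each gave 0, and limma voom and no filter each gave 1. For diet in Cort mice, DESeq2 and limma with quality weights each gave 1 in eWAT, and in liver quality weights gave 2 and all 16 libraries 0. For the difference between the tissues' cort responses on the NPD, RLE factors, library totals, limma voom, no filter and all 16 liver libraries each gave 1 in place of 2, with 1 to 3 when a library was left out. On the HPD, DESeq2 gave 4 and all 16 liver libraries 1. The causes were not tested.

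Differences near 0 changed sign. In eWAT on the HPD, limma voom gave Ccl7 -0.071, and leaving out 1 library gave -0.11 to 0.54 for Ccl7, -0.19 to 0.038 for Ccl6, -0.54 to 0.25 for Cxcl1 and -1.78 to 0.012 for Cxcl14. In liver on the HPD, all 16 libraries gave Cxcl12 0.20, and leaving out 1 gave -0.13 to 0.079 for Cxcl12, -0.11 to 0.90 for Cxcl1 and -0.71 to 0.48 for Cxcl14. Within a tissue, same-numbered libraries of different groups had a median correlation of deviations over all genes of -0.01 in eWAT and -0.02 in liver. This check did not set eWAT libraries against liver libraries, so it cannot say whether a shared number means a shared mouse. With a replicate block, Cxcl12 in liver on the HPD was 0.00920, the chemokines called for cort were 4 and 3 in eWAT and 1 and 2 in liver, as without it, and 6 in place of 7 were called between tissues, Ccl7 being lost.

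Library totals in place of TMM moved the median of all genes by cort on the HPD in liver from -0.00 to -0.24, and the share of higher calls from 52.4% to 23.2% for diet in liver of Cort mice, from 50.7% to 36.1% for cort in eWAT on the NPD, from 41.9% to 53.4% for diet in eWAT of Cort mice, from 53.8% to 81.2% between tissues and from 64.4% to 80.2% for the responses on the HPD. Low counts limit Cxcl1 and Cxcl14 in eWAT and Ccl7, Ccl8, Ccl11 and Cxcl14 in liver.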
